A study of Caenorhabditis elegans with 2 samples.

Results

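The collagen genes of Caenorhabditis elegans named col with a number are a large family, and most encode cuticle collagens. The Ensembl annotation of WBcel235 (release 115) holds 156 protein-coding genes with such a name, of 19973 protein-coding genes on the nuclear chromosomes. All 156 were measured, by position: a gene was counted as bound where the summit of a CEH-18 peak lay between 1000 bp upstream and 200 bp downstream of its 5′ end, a stretch called the promoter window here. Chromatin immunoprecipitation and sequencing was done on whole hermaphrodite late embryos of strain OP533, genotype unc-119(tm4063) III; wgIs533, taken 3 h after synchronisation by egg bleaching. The animals carry CEH-18 with a C-terminal GFP-FLAG tag. The description in the labels names an antibody against GFP, whereas their antibody field says ceh-18. There were 2 biological replicates and 1 group, so the design holds no comparison of conditions. The labels do not say what promoter drives the tagged protein or which cells make it.

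Cuticle collagens are short secreted proteins whose repeats of glycine, often followed by proline, wind into triple helices. The epidermis makes them in waves before each molt and builds the first cuticle in the late embryo. Propeptides are trimmed, prolines are hydroxylated in the endoplasmic reticulum, and tyrosines are crosslinked outside the cell. CEH-18 is a homeodomain protein of the POU class, a family known to bind octamer sequences, and in this animal it is known for its roles in gonadal sheath cells and in epidermis.

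Peaks came from 4 deposited lists on the ce11 build. The thresholded list, labelled as optimal, held 2575 summits that passed the authors' irreproducible discovery rate step. The label does not say which comparison of replicates set that step. The pooled list held 28466 summits from both replicates together and is labelled as peaks and background. The lists of replicate 1 and replicate 2 held 30000 and 21337 summits. The signal of a peak is the authors' own height on a scale that is not stated, so it was read only within 1 list. Read depth is unknown. No test was made of the shares below, since genes and summits are not replicates, and each share of col genes is given beside the same share of all protein-coding genes.

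The col genes had few summits at their starts and many inside them. In the thresholded list 4 of 156 col genes (2.56%) had a summit in the promoter window, against 1438 protein-coding genes, 7.20% of all. In the pooled list 35 col genes (22.4%) did, against 7020, or 35.1% of all. Inside the gene, between its annotated ends, the pooled list had a summit in 121 of 156 col genes (77.6%), against 7444 genes, or 37.3% of all. Few of these inner summits passed the threshold: 4 col genes (2.56%) had one in the thresholded list, against 613 genes, or 3.07% of all. Of the 5 thresholded summits inside col genes, 3 lay within 200 bp of a small RNA gene, in col-85, col-99 and col-72. Over all protein-coding genes this held for 122 of 809 thresholded inner summits.

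**Figure D1:**
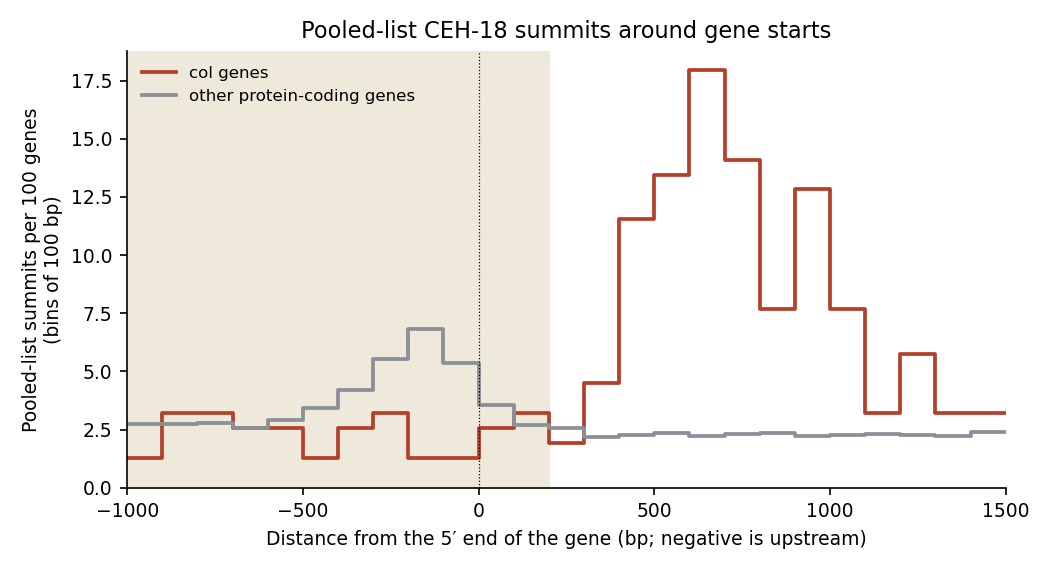
Pooled-list summits per 100 genes (vertical axis) in bins of 100 bp by distance from the 5′ end (horizontal axis), for the 156 col genes and the 19817 other protein-coding genes; the shaded stretch is the promoter window, and bins past the end of a short gene are counted too. The col genes peak at 17.9 summits per 100 genes between 600 and 700 bp downstream, and the other genes at 6.83 per 100 genes in the last bin but one before the 5′ end.

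Examples of 3 kinds of summit that recur in the results are printed as 121 bases centred on the summit, read from the RefSeq genome sequence of WBcel235. Summits of other kinds, such as those of col-55, col-72, col-105 and col-119, are described further on. The first kind is upstream of a col gene and shared with a neighbouring gene. In the window of col-71 the capitals mark the 5-letter word ATGCA, read here on the other strand as TGCAT; col-38 has no such word and no capitals.
col-38 (chrII:8569489-8569609, plus strand): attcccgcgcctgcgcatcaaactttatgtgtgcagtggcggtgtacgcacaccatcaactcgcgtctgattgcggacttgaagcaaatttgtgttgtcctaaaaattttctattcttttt
col-71 (chrII:3502777-3502897, plus strand): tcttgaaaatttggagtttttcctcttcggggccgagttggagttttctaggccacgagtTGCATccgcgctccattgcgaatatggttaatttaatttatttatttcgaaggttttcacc

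The second kind lies on or next to a small RNA gene, and the capitals mark the bases of that annotated gene. It is a tRNA gene for col-185, col-85, col-98 and col-181, and the snRNA gene R07E5.16 for col-94.
col-185 (chrX:13511925-13512045, plus strand): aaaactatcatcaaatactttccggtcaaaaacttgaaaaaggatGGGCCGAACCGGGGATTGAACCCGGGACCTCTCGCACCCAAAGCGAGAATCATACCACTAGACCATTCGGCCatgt
col-85 (chrII:12494729-12494849, plus strand): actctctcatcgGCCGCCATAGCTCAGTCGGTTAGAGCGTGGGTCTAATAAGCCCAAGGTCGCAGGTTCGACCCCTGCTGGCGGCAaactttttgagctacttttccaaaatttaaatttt
col-98 (chrIII:13016106-13016226, plus strand): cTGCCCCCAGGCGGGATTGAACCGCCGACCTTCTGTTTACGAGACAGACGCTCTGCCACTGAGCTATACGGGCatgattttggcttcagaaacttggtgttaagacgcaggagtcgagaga
col-181 (chrX:12106179-12106299, plus strand): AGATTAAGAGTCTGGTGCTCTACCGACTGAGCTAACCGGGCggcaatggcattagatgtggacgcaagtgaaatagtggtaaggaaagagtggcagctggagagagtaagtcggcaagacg
col-94 (chrIII:10989595-10989715, plus strand): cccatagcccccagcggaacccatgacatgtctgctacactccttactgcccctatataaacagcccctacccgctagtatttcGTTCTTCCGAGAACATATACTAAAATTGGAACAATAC

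The third kind lies in the coding exons of the col genes themselves. The capitals mark the word CCAGGA on either strand; CCA and GGA are codons for proline and glycine, although the reading frame of each match was not checked. The col-130 stretch, the only thresholded summit in a col coding exon, holds 7 copies, and the gene runs on the minus strand, so the word appears as TCCTGG. The col-108 stretch, under the strongest inner summit below the threshold that is printed here, holds 1 copy.
col-130 (chrIV:12427793-12427913, plus strand): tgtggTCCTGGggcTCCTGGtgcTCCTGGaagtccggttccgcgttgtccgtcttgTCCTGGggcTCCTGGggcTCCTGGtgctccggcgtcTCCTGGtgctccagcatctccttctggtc
col-108 (chrIV:1769246-1769366, plus strand): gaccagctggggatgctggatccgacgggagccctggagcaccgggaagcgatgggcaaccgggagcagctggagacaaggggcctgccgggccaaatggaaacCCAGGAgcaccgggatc

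The 4 bound col genes were col-38, col-71, col-185 and col-55, in order of signal. The summit at col-38, a collagen gene on the minus strand of chromosome II at 8568035 to 8569088, lay 461 bp upstream of its 5′ end in intergenic sequence. Its signal was 249 in the pooled and thresholded lists, 579th of 2575 in the thresholded list, and it was 116 in replicate 1 and 126 in replicate 2. The same summit lay 378 bp upstream of rpl-5, a ribosomal protein gene. It was therefore nearer to rpl-5 than to col-38, and the lists do not say which gene a peak belongs to.

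The summit at col-71, also on the minus strand of chromosome II (3500077 to 3502570), lay 267 bp upstream in intergenic sequence. Its signal was 183, 1151st in the thresholded list, and it was 76.8 in replicate 1 and 106 in replicate 2. It lay 131 bp upstream of Y49F6B.2, again the nearer gene. Sharing of this kind was about as frequent among bound col genes, 2 of 4, as among all bound genes, 672 of 1438 (46.7%). Without summits that lie in the windows of several genes, 2 col genes were bound, col-185 and col-55 (1.28%), against 770 genes, or 3.86% of all.

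The summit at col-185, on the minus strand of the X chromosome (13510035 to 13511097), lay 888 bp upstream and inside a tRNA gene, WBGene00014413, at 13511970 to 13512041. Its signal was 139, ranked 1874th, with 75.5 in replicate 1 and 65.6 in replicate 2. It was the only bound col gene with a tRNA, snoRNA or snRNA gene within 200 bp of the summit. That is 1 of 156 col genes, against 72 genes, or 0.360% of all, and in the pooled list it was again col-185 alone, against 136 genes, or 0.681% of all. The summit at col-55, on the plus strand of chromosome I (6199673 to 6200193), lay 948 bp upstream, close to the far end of the window. Its signal of 121 ranked 2371st, with 65.8 in replicate 1 and 59.6 in replicate 2. Both of these summits fell outside a window of 500 bp upstream to 100 bp downstream, in which col-38 and col-71 stayed bound.

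Each of the 4 summits had a counterpart in both replicate lists within 150 bp. They come from a list that joins both replicates and was thresholded for reproducibility, so this is not separate support. Divided by the median signal of its own list, the col-38 peak stood at 5.50 in replicate 1 and 5.17 in replicate 2, and the col-55 peak at 3.11 and 2.44. The 4 genes took the same order by signal in replicate 2 and in the pooled list, and in replicate 1 as well.

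The pooled list added 31 col genes, all below the lowest thresholded signal of 114. The 3 just below were col-44 at 96.6, col-39 at 92.0 and col-97 at 82.0. The summits counted for col-44 and col-39 were in coding exons of other genes: that of col-44 lay 591 bp upstream of it, inside col-9, and that of col-39 lay 739 bp upstream, inside col-79, which overlaps the annotated dph-2. The summit of col-97 was intergenic, 631 bp upstream. The next 5 were col-10 at 67.0, col-63 at 66.0, col-95 at 57.8, col-46 at 56.5 and col-48 at 54.3. The summit of col-63 lay in the 3′ UTR of the homeobox gene ceh-8 and that of col-48 in an intron of the MAP kinase kinase gene mek-2. The summit of col-46 lay in a coding exon where col-46 and col-47 overlap.

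**Figure D2:**
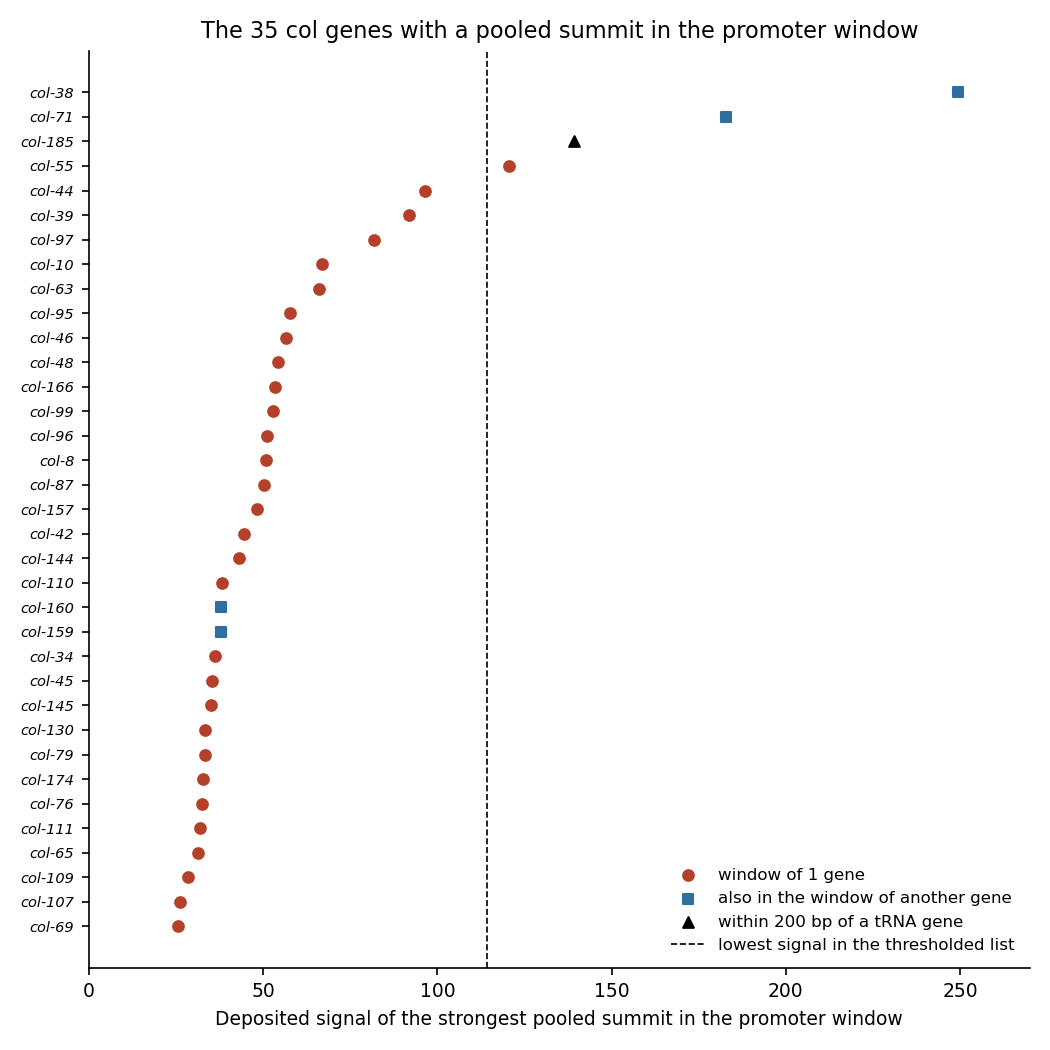
Deposited signal (horizontal axis, the authors' unstated scale) of the strongest pooled summit in the promoter window of each of the 35 col genes that have one (rows). The 4 genes right of the dashed line, at 114, are those in the thresholded list; 2 of them share the summit with another gene and 1 lies at a tRNA gene.

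Over these 35 col genes the strongest window summit had a median signal of 48.1 (at most 249), against 52.6 (at most 1223) over the 7020 genes with one. The share at or above the lowest thresholded signal was 4 of 35 (11.4%), against 1438 of 7020 (20.5%). There were 44 pairs of a col gene and a summit, since 9 genes had 2 summits and none had more, and col-159 and col-160 shared one. Of the 44, 35 lay upstream of the 5′ end at a median of 563 bp, and 9 lay downstream. By annotation 23 were intergenic, 8 in introns, 8 in coding exons and 5 in untranslated or other exon sequence. A counterpart within 150 bp was found in replicate 1 for 33, in replicate 2 for 31, in both for 22 and in neither for 2. The same counterpart could be counted again for a neighbouring summit, as in replicate 2 for the 2 summits of col-63. Sharing with another gene's window was seen for 4 of the 35 (11.4%), against 2345 of 7020 genes (33.4%).

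Among 8 col genes known from earlier work, 6 had no pooled summit in the promoter window, as did 121 of 156 col genes and 12953 of 19973 protein-coding genes. The adult-stage collagen col-19 and the dauer-stage collagen col-2 had none in the pooled list, nor did col-7, col-12, col-13 and col-62. col-10 had 2, at 67.0 and 51.2, and col-99, which encodes a collagen with a membrane-spanning segment, had 1, at 52.9. From the 5′ end of a col gene to the nearest thresholded summit on its chromosome the median distance was 18922.5 bp (267 to 136890), against 17642 bp over all protein-coding genes.

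When each thresholded summit was given instead to the gene with the nearest 5′ end, 11 col genes received 12 summits (7.05% of col genes), against 2084 genes, or 10.4% of all. Of those 12 summits, 7 (58.3%) lay within 200 bp of a tRNA, snoRNA or snRNA gene, against 256 of all 2575 thresholded summits (9.94%). Inside such a gene lay 4 of the 12, against 99 of the 2575. The strongest were the pair near col-94, at signals of 646 and 387, which lay 24 and 78 bp from R07E5.16 and 1782 and 1985 bp upstream of col-94, inside the dynein heavy chain gene dhc-4. The stronger of them had signals of 301 in replicate 1 and 340 in replicate 2 and ranked 18th in the thresholded list.

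The summit given to col-181 (signal 376; 178 in replicate 1 and 194 in replicate 2) lay 1309 bp downstream of its 5′ end, past its 3′ end, and 20 bp from a tRNA gene. The summits given to col-85 (301; 177 in replicate 1 and 126 in replicate 2) and col-99 (221; 100.4 in replicate 1 and 118 in replicate 2) lay inside tRNA genes that sit in introns of these collagen genes. That given to col-98 (140; 72.9 in replicate 1 and 70.5 in replicate 2) lay inside a tRNA gene 2842 bp upstream. In each case the summit was nearer to the tRNA gene than to the 5′ end of the collagen gene.

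The other 5 of the 12 summits, leaving aside those of col-94, col-181, col-85, col-99, col-98 and col-185, were more than 2000 bp from any small RNA gene. That of col-72 (159) lay in its own intron 464 bp downstream of the 5′ end, and that of col-105 (149) was intergenic, 2796 bp upstream. That of col-130 (144) was in its coding exon, 663 bp downstream, in a stretch annotated to ugt-65 as well. That of col-119 (133) lay in an intron of pdzd-8, 1555 bp downstream, and the last was that of col-55.

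**Figure D3:**
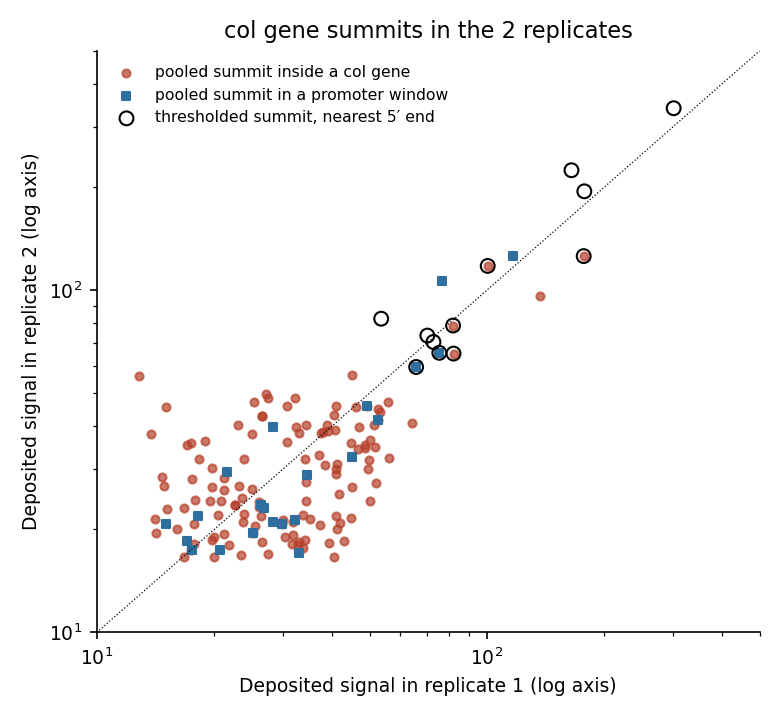
Deposited signal of col gene summits in replicate 1 (horizontal, log axis) against replicate 2 (vertical, log axis), for summits with a counterpart within 150 bp in both lists; the dotted line marks equal signals. The strongest circle is the summit nearest to col-94, at 301 in replicate 1 and 340 in replicate 2, and most inner summits lie under 60 in both.

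The inner summits form the most widespread pattern in the family. The pooled list placed 198 summits in col genes, 201 pairs of a gene and a summit, so 0.857 per kb of gene, against 0.273 per kb over all protein-coding genes. The col genes are shorter, with a median length of 1220 bp, against 2027 bp over all genes. Of the 156 col genes, 35 had no inner summit, 63 had 1, 47 had 2, 5 had 3 and 6 had more, up to 9 in the long gene col-99. The promoter window and the gene body overlap in the first 200 bp; 33 col genes had a summit in both places, 88 in the body alone, 2 in the window alone and 33 in neither.

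The inner summits lay mostly, but not all, past the middle of the gene. Their median position was 762 bp from the 5′ end, or 58.9% of the gene's length. They numbered 20 in the first 25% of the gene's length, 48 from 25 to 50%, 99 from 50 to 75% and 34 in the last 25%. A coding exon held 178 of the 198 (89.9%), against 39.9% of the 17051 pooled summits inside protein-coding genes. The col genes also hold more coding sequence for their length. They have 152539 coding bases in 234.56 kb of gene, against 24565742 in 64204.9 kb for genes not named col. These 2 shares of summits are not corrected for that difference. The median signal was 49.7 (at most 301), against 35.7 (at most 696) over all inner summits. A deposited −log10 q of at least 2 was reached by 39 of the 198 (19.7%), against 10.7% of all inner summits. The strongest below the threshold, chosen after their values were seen, were those in col-108 (101), col-139 (97.4), col-36 (96.9), col-9 (96.6) and col-105 (96.6), each in a coding exon. The same 5 had signals of 45.1 to 64.2 in replicate 1 and 40.8 to 56.5 in replicate 2.

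The pattern was present in both replicate lists. In replicate 1 an inner summit was found in 125 col genes (80.1%), against 40.3% of all genes, and in replicate 2 in 112 (71.8%), against 30.7%. Both replicates placed one in the same 104 col genes, and 101 of these had one in the pooled list as well. With shares this high in each replicate a large overlap follows in any case. It was not set beside the overlap over all genes. Of the 201 pairs, 126 had a counterpart within 150 bp in both replicates and 9 in neither. A replicate summit could serve as counterpart of more than 1 pooled summit, as it did for neighbouring summits in col-80. The 126 are therefore not all separate pairs of replicate summits, which also holds for the values that follow. After division by each list's median signal, those 126 differed between replicate 1 and replicate 2 by a median log2 ratio of 0.33. The SD was 0.62, and 108 agreed within 2-fold. These counts of pairs were not set beside those for all inner summits. Of the well-known genes, col-2 had inner summits at 72.1 and 25.4 and col-19 had 1 at 52.3, while col-7, col-12, col-13 and col-62 had none.

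**Figure D4:**
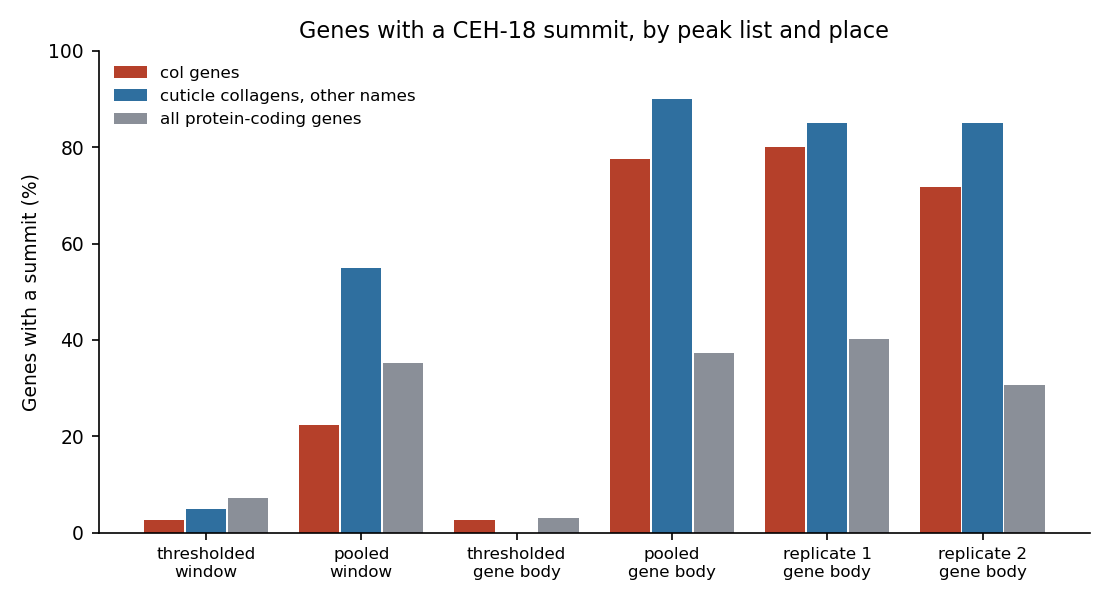
Percentage of genes with a summit (vertical axis, from 0), for col genes, cuticle collagens with other names and all protein-coding genes, in the promoter window or in the gene body of the named peak list. Bars for col genes stand at 22.4% in the pooled windows and 77.6% in the pooled gene bodies, against 35.1% and 37.3% for all genes.

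The inner summits lay in GC-rich sequence. The 151 bases around them were on average 57.5% G and C, against 43.5% for all inner summits, and the col genes themselves had a median GC content of 49.1%, against 36.4% for all genes. The word CCAGGA, on either strand, was in the 151 bases of 156 of the 198 (78.8%), against 6.57% of all inner summits, 9.18% of the 6624 pooled summits in coding exons outside col genes, and 5.12% of all pooled summits. This word was chosen after the summits had been seen, and it is frequent in collagen coding sequence with or without a summit. Of all coding bases of col genes, 62.9% had it within 75 bp, against 6.46% of the coding bases of other protein-coding genes. In the 121 col genes with an inner summit that share was 61.9%, against 66.3% in the 35 without one, and the GC content around coding bases averaged 52.6%, against 52.4%. Over whole coding sequences the word and the GC content thus differed little between col genes with and without an inner summit. By position both were higher at the summits. G and C made up 57.5% around the 198 inner summits, against 52.5% around all col coding bases. The word was near 78.8% of these summits, against 62.9% of those bases.

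Among genes not named col, summits per kb were more frequent at higher GC content as well: 0.160 below 35%, 0.294 from 35 to 40%, 0.484 from 40 to 45%, 0.703 from 45 to 50% and 0.789 at 50% or more. The col genes had 0 genes below 35%, and in the next bins 0.372 summits per kb (14 genes), 0.853 (30 genes), 0.885 (43 genes) and 1.03 (69 genes). The col genes were thus higher in each of the 4 bins they occupied. The share of genes with an inner summit did not follow GC content in the same way. From 35% GC upward, in the same 4 bins, it was 71.4%, 90.0%, 76.7% and 73.9% of col genes, against 39.0%, 51.1%, 52.0% and 29.6% of other genes, and 26.7% of the other genes below 35%. At 50% or more the gap was wider in this share than in summits per kb, and the genes there had a median length of 1063 bp for col genes, against 372 bp for the others. The part of GC content, of repeats shared between collagen genes and of the control library in the inner summits was not tested. The sources used here do not say how reads that match several collagen genes were placed.

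**Figure D5:**
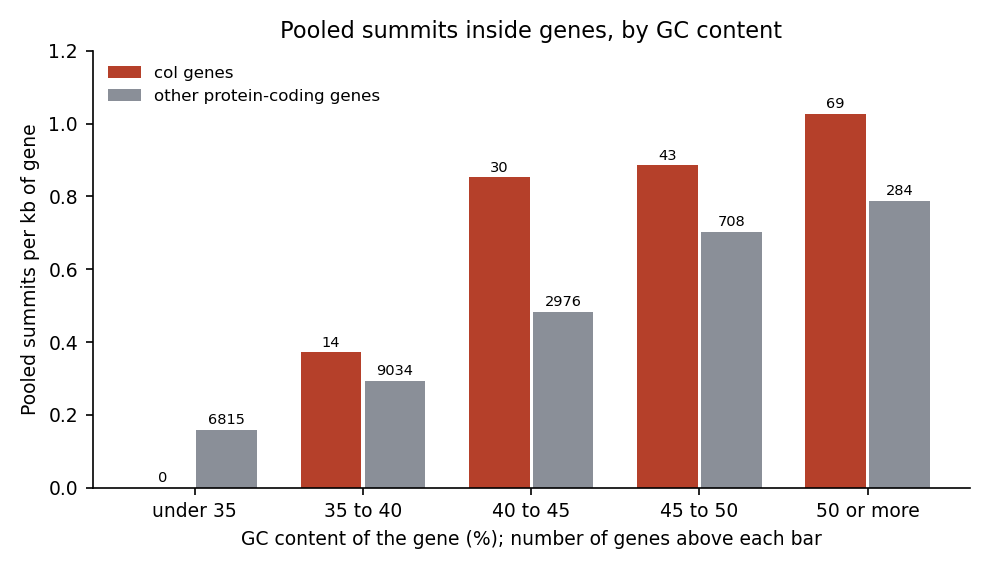
Pooled summits per kb of gene (vertical axis, from 0) by GC content of the gene (horizontal axis, in percent), for col genes and for other protein-coding genes, with the number of genes above each bar; no col gene is below 35%. The col genes reach 1.03 per kb at 50% or more, where the 284 other genes, with a median length of 372 bp, reach 0.789.

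Among 6 words searched under the promoter-window summits, GGGCGG was more frequent than under all pooled summits. It was also more frequent in col promoters than in all promoters. The octamer ATGCAAAT, the classical POU site, was in the 151 bases of 0 of 43 col promoter-window summits in the pooled list, against 1.36% of all pooled summits. With so low a share over all summits, 0 of 43 does not set the col genes apart. GAGAGA, searched on both strands as were all the words, was in 6 of 43, against 18.8% of all pooled summits, and with 100 bp to either side in 23.3%, against 23.4%. In the thresholded list it was in 0 of the 4 col window summits, against 45.2% of all summits, and with 100 bp to either side in 1 of the 4. Of the 14 thresholded summits in a col window or nearest to a col gene, 5 (35.7%) held it within 75 bp. GGGCGG was in 8 of 43 (18.6%), against 6.28%, but in the thresholded list in 0 of the 4 col window summits, against 10.4% of all. The ATGCA word was in 8 of 43 (18.6%), against 21.3%, AGATAA in 4.65%, against 6.96%, and CACGTG in 2.33%, against 3.98%. Across promoters from 250 bp upstream to 50 bp downstream, the octamer was in 6 of 156 col genes (3.85%), against 2.87% of all. None of these 6 had a pooled summit in the promoter window. Of all 156 col genes 121 had none either, so this does not set the 6 apart.

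In the same promoters GAGAGA was in 26.9% of col genes, against 21.8% of all, GGGCGG in 16.0%, against 7.87%, and CACGTG in 1.28%, against 5.84%. AGATAA was in 26.3%, against 21.2%. GGGCGG was in 20.0% of promoters of col genes with a pooled window summit, and in 14.9% of those without. The col promoters were 37.7% G and C, against 34.8% for all. A match of letters is a description of the sequence only.

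Other collagen genes, and genes for collagen modification, regulators and cuticulins, were counted in the same way, in lists that are mostly short. Of 20 cuticle collagens with other names (the dpy, rol, sqt, lon and bli collagens and their like), 1 was bound in the thresholded list, bli-6, a collagen whose mutants form cuticle blisters. Its summit, on chromosome IV at 6376726, lay 339 bp upstream, with a signal of 161 in the pooled list, 65.2 in replicate 1 and 92.4 in replicate 2, and it was shared with hrpf-2. In the pooled list 11 of the 20 (55.0%) had a summit in the promoter window, against 35.1% of all genes, where the col genes were below all genes, at 22.4%. Inside the gene 18 (90.0%) had one, against 37.3% of all genes, at 1.02 per kb, against 0.273, and with CCAGGA under 26 of 29 summits.

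Of 4 collagens outside the cuticle, let-2, which encodes a chain of basement membrane type IV collagen, was bound. Its summit lay 142 bp upstream on the X chromosome at 16389482, with a signal of 177, and 95.2 in replicate 1 and 85.9 in replicate 2. In the pooled list 3 of these 4 had a summit in the window, against 35.1% of all genes, and 4 of 4 inside the gene, against 37.3%. CCAGGA was under 13 of their 19 inner summits, against 6.57% of all inner summits. These 4 genes are long, with a median length of 8155.5 bp, against 2027 bp over all genes. Per kb of gene they had 0.477 inner summits, against 0.273. Of 13 genes for collagen modification and crosslinking, 0 were bound in the thresholded list, as were 0 of 8 regulators of cuticle collagen genes and 0 of 35 cuticulin genes, which encode non-collagen cuticle proteins, against 7.20% of all genes. In the pooled list 10 of the modification genes (76.9%), 6 of the 8 regulators and 13 of the cuticulin genes (37.1%) had a window summit, against 35.1% of all genes.

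Inside the gene, the pooled list had summits in 10 of the 13 modification genes, 8 of the 8 regulators and 16 of the 35 cuticulin genes (45.7%), against 37.3% of all genes. Per kb of gene that was 0.382, 0.466 and 0.192 summits, against 0.273 over all genes. CCAGGA was under 2 of 29, 1 of 29 and 2 of 28 of those summits. These shares of 3.45 to 7.14% stand beside 6.57% of all inner summits. The genes of these 3 lists are longer than col genes, with median lengths of 5095, 5907.5 and 3952 bp. In the thresholded list 2 of the 13 modification genes and 0 of the 8 regulators had an inner summit. So did 1 of the 35 cuticulin genes, at a signal of 466 and near a small RNA gene, against 3.07% of all genes.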

How the data were processed

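The authors deposited narrowPeak lists on 2 genome builds, per the files: 1 list per replicate, 1 from the pooled replicates and 1 thresholded by the irreproducible discovery rate. Only the ce11 lists were used, since no ce10 sequence was used here. The signal and the −log10 q of each peak are the authors' deposited values. The sources used here name no aligner or peak caller. The labels say biological replicates but not whether they came from separate cultures.

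Summits were assigned to the 5′ ends of genes in Ensembl release 115 (WBcel235, the same assembly as ce11) with Python 3.11.15, numpy 2.4.6 and pandas 2.3.3. Coordinates are 1-based. Replicate counterparts needed a summit within 150 bp, and the same replicate summit could be used more than once. Words were searched within 75 bp of summits. The assignment was checked on made-up genes with known summits. Depth is unknown, and no interval is given.

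Named genes were the bound members, those nearest to a thresholded summit within 5000 bp, the 12 with the highest pooled window signal, bound genes of the 5 other lists, genes sharing a summit, and a few well-known members; of these col-6 is not among the 156. One collagen name, ram-4, matched no gene. The members, lists and rules were chosen with earlier results of these data known. The counts inside genes, the word CCAGGA and the GC bins were added after seeing the data.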

Additional observations from a re-analysis of the deposited data

How the results depend on the processing

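In the thresholded list 2 col genes were bound with a window of 500 bp upstream to 100 bp downstream, against 5.50% of all genes. The window of 2000 bp to 500 bp gave 7 (4.49%, against 10.2%) and the nearest 5′ end gave 11 (7.05%, against 10.4%). The stronger 50% of peaks gave 2 (against 3.78%), and summits in the window of 1 gene only gave 2 (against 3.86%). Without replicate 1 the count was 4 (against 7.53%), and without replicate 2 it was 4 (against 6.80%). From replicate 1 alone col-2 took the place of col-55. In the 8 alternatives compared, the col share was below that of all genes. In the pooled list the count was 18 with the shorter window (against 24.8% of all genes) and 63 with the longer (against 48.8%). It was 21 among the stronger 50% (against 24.0%) and 7 at a −log10 q of at least 2 (against 12.5%). Without replicate 1 it was 36 (against 31.7%), and without replicate 2 it was 37 (against 35.3%). By nearest 5′ end it was 121, and the col share was above that of all genes (77.6% against 53.8%). In the other 8 settings the col share was below. Inner summits were found in 37 col genes at a −log10 q of at least 2 (against 6.35% of all genes). In the thresholded list there were 4 such col genes (against 3.07%). Without replicate 1 there were 112 (against 30.7%), and without replicate 2 there were 125 (against 40.3%).

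With all non-coding RNA genes other than piRNA genes counted, the col genes with one within 200 bp of a window summit were 2 in the thresholded list (1.28%, against 1.48% of all genes) and 4 in the pooled list (2.56%, against 4.28%). The GAGAGA share of col window summits was 23.3% with 100 bp to either side, against 23.4% of all pooled summits, so it was no longer below them. Cuticle collagens with other names numbered 2 by nearest 5′ end, 0 among the stronger 50% and 0 with unshared summits. Collagens outside the cuticle numbered 2 with the longer window and 2 by nearest 5′ end, and 1 to 2 without either replicate. Modification genes numbered 1 by nearest 5′ end, and cuticulins 1 with the longer window and 3 by nearest 5′ end. The shares of all genes at these settings are those given above for the thresholded list. The cause was not tested, beyond the wider or narrower windows themselves. No paired analysis was possible because there is 1 group and no test. Depth is unknown, so a col gene without a summit is not shown to be unbound.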

Other observations

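The list of replicate 1 held 1 strong col summit that the other lists lacked. It lay 423 bp upstream of col-2, at 10085874 on chromosome IV, with a signal of 67.4 that ranked 2014th of 30000 and a −log10 q of 3.13. The nearest summit in replicate 2 was 868 bp away and the nearest in the pooled list 845 bp away.

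The share of col genes with a pooled window summit differed by chromosome. It was highest on III, 4 of 12 (33.3%), against 46.5% of all genes there, and lowest on X, 4 of 27 (14.8%), against 38.1%. On V it was 7 of 31 (22.6%), against 24.5%, the smallest gap of the 6 chromosomes. These counts are small and the differences between chromosomes were not tested.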
